A study of Drosophila melanogaster with 8 samples.

Results

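Short domains of H3K36me3 were defined in wild type *Drosophila melanogaster* embryos as runs of 1 or 2 adjacent windows of 2 kb whose mean log2 IP/input was 2 or above, with a measured window below 2 on each side. Log2 IP/input is the ratio of immunoprecipitated DNA to input DNA at a probe, with the median of the array subtracted, so that a value of 2 stands for 4-fold enrichment over the middle of the array. The domains were taken from chromosome arms 2L, 3L and 3R without the 1 Mb next to the centromere, and they were chosen on the mean of both wild type samples. There were 621 short domains among 1616 runs of windows at 2 or above on these arms, 305 of 1 window and 316 of 2 windows. They made up 38.4% of the runs and, with 937 windows, 13.7% of the 6822 windows at 2 or above. Another 396 runs held 3 or 4 windows and 560 held 5 or more, the latter called broad domains here. A further 39 runs of 1 or 2 windows had no measured neighbour on at least 1 side and were not counted as short domains.

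The embryos were collected 2 to 4 hr after egg laying. The *dkdm4a* mutant line carries the SUPor-P element KG04636 in the first exon of *dKDM4A* in a y1 w67c23 background, and the line called wild type was made from it by precise excision of that element. Each genotype is thus 1 line, with 2 biological samples, and chromatin came from whole embryos, so that fewer cells with the mark and less of the mark per cell cannot be told apart. Each sample was hybridized to 2 Agilent array designs that divide the genome, 8 arrays in all. Cy5 always labelled the IP DNA and Cy3 the input, without a dye swap. The labels give no anatomical tissue to check against markers, and DNA arrays do not measure marker expression. Background-subtracted medians per array ran from 83.4 to 130 units in the IP channel and from 609 to 989 in the input channel, with lower values for replicate 2. The scanner headers put all replicate 1 arrays on 1 day and all replicate 2 arrays on another day, whatever the genotype. The array files name no genome build, positions are given as the files list them, and no gene or sequence was placed on a domain.

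H3K36me3 is the trimethylation of a lysine in the tail of histone H3. It is laid down over the bodies of transcribed genes, in flies by Set2, an enzyme that travels with elongating RNA polymerase. The mark typically rises from the 5′ end of a gene toward its 3′ end, and it recruits factors that keep transcribed chromatin closed to initiation inside genes. dKDM4A is a demethylase that removes it, and at the age sampled here the embryo passes from maternal products to transcription of its own genome.

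The level of the mark at short domains covered a wide range in every sample. In wild type embryos the mean over the 621 domains was 3.19 in replicate 1 (SD 0.88 over domains) and 3.68 in replicate 2 (SD 0.96). In *dkdm4a* mutant embryos it was 3.16 in replicate 1 (SD 0.94) and 3.64 in replicate 2 (SD 1.04). Replicate 2 was higher than replicate 1 in both genotypes by the same amount, 0.48, which was more than the distance between the genotypes in either replicate. On the linear scale the median domain was enriched 9.21-fold and 12.9-fold in the wild type samples and 8.92-fold and 12.7-fold in the mutant samples. The members differed by length as well, with a wild type mean of 3.11 for domains of 1 window and 3.75 for domains of 2 windows, beside 4.08 for runs of 3 or 4 windows and 4.34 for broad domains. Broad domains were also more alike, with an SD of 0.44 over domains against 0.92 for short ones. Since the wild type values selected the domains, these levels are a description and were not tested.

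The highest short domain lay at 3L:4094001-4098000. Its log2 IP/input was 5.40 and 6.22 in the wild type samples and 5.44 and 6.02 in the mutant samples, a wild type mean that stands for 56.2-fold enrichment. The next domains were single windows. The first of them, 3R:21678001-21680000, measured 5.25 and 5.90 in wild type and 5.32 and 5.90 in the mutant. The second, 3L:11656001-11658000, measured 5.26 and 5.80 against 5.16 and 5.71. In all 3 domains, the values of the genotypes overlapped and replicate 2 was the higher sample of each genotype. The remaining named ones, 3L:5874001-5876000, 3R:16888001-16890000, 3L:16352001-16356000, 3R:5414001-5416000 and 3L:12252001-12256000, had wild type values of at least 4.90 in replicate 1 and at least 5.63 in replicate 2. None of these 8 passed the limma test of mutant against wild type, with or without the replicate block. The 4 domains with the highest mutant values were among these high wild type domains.

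The mark fell off steeply on both sides of a short domain. The rule asks for a window below 2 on each side, so a fall in wild type follows from the choice and was not tested. In the 0.5 kb next to the centre of the highest window, probes averaged 3.67 and 4.20 in wild type replicates 1 and 2 and 3.63 and 4.14 in the mutant. Between 3.5 and 4 kb before the centre they averaged 0.50 and 0.66 in wild type and 0.49 and 0.66 in the mutant, and farther out the level rose again. The curves of both genotypes lay on each other within a replicate, while the replicates stood apart at the centre. Domains were on average 2.44 and 2.72 above the mean of their neighbouring windows in wild type and 2.42 and 2.68 above it in the mutant.

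**Figure D1:**
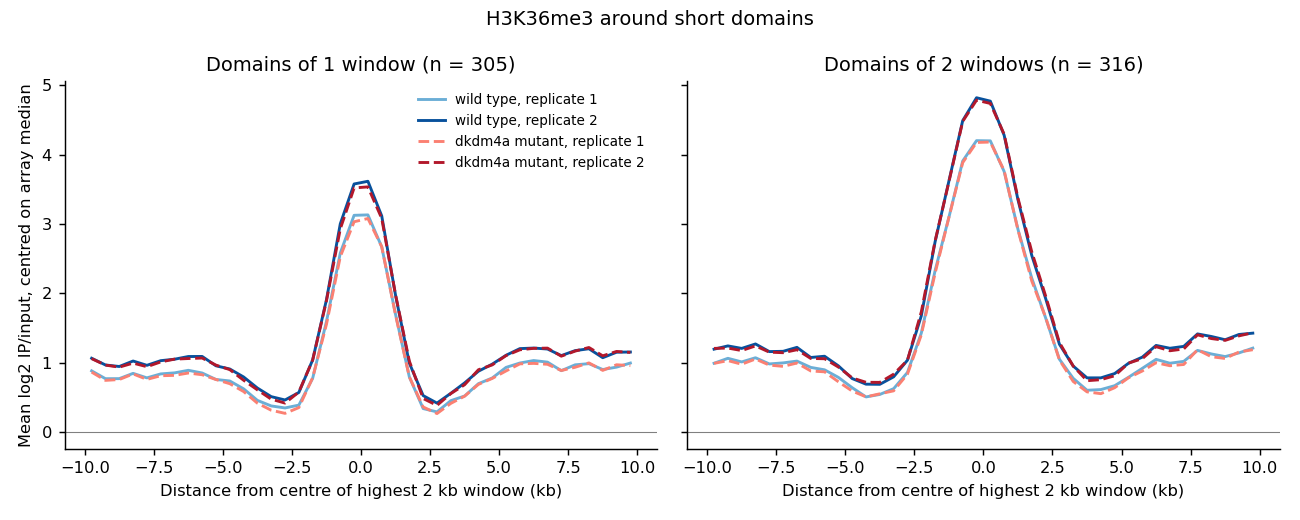
Mean log2 IP/input of probes in bins of 500 bp, by distance from the centre of the highest 2 kb window of each domain, for domains of 1 window (left) and of 2 windows (right). Lines are the 4 samples; the centre is higher in replicate 2 than in replicate 1 of both genotypes, and wild type (solid) and mutant (dashed) lines of 1 replicate run together.

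Most neighbouring windows had values between 0 and 2. Over the 1242 windows beside the domains, the wild type mean was 0.85 and the mutant mean was 0.85, and 568 had a wild type value from 1 up to 2. Only 187 had a wild type value below 0. In 191 domains both neighbours were below 1, and in 11 both were below 0. One of the 11, 3R:14920001-14922000, measured 3.94 and 4.39 in wild type and 3.91 and 4.41 in the mutant. The 11 averaged 2.75 and 3.19 in wild type and 2.75 and 3.20 in the mutant, and 10 of them covered the same windows in the mutant mean. At the other end, 248 domains had a neighbour at 1.5 or above, close to joining a longer run. Of these, 66.9% covered the same windows in the mutant mean, a share that depends on this closeness to the level.

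The width of the domains was also measured on single probes. Probes that stayed at 2 or above in a running median of 3 extended over a median of 2.66 kb in wild type (quartiles 1.93 and 3.59 kb) and 2.71 kb in the mutant (quartiles 1.87 and 3.67 kb), or 12 probes in each. In wild type, 107 stretches were longer than 4 kb, since a run of probes can reach into a window whose mean is below 2, and 25 were shorter than 1 kb. The strongest probe of a domain had a median of 4.65 and 5.25 in wild type replicates 1 and 2 and of 4.59 and 5.18 in the mutant. It was chosen on the wild type mean, and it was at 2 or above in both mutant samples in 608 of 621 domains. In domains of 2 windows the windows differed by a median of 0.90, and the taller window was the same in both genotypes in 300 of 316.

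Short domains were spread along the arms. There were 175 on 2L (8.20 per Mb), 217 on 3L (9.65 per Mb) and 229 on 3R (8.51 per Mb). When each arm was divided into 3 equal parts from the telomere to the centromere, 34.0%, 35.3% and 30.8% of the short domains fell into them, beside 33.4%, 33.6% and 33.0% of all windows. These shares of domains and windows were close. The nearest other run at 2 or above was a median of 6 kb away, and 178 domains were separated from it by a single window of 2 kb. That neighbour was another short run in 267 cases, a run of 3 or 4 windows in 140 and a broad domain in 214.

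Some short domains were far from any other. In 45 the nearest run was at least 50 kb away, and the most isolated, 2L:15498001-15502000, had none within 222 kb. It measured 3.73 and 4.27 in wild type and 3.79 and 4.33 in the mutant, so that the samples of 1 replicate were close and the replicates apart. The 2L domain at 17712001-17716000, 214 kb from its neighbour, measured 2.63 and 3.16 in wild type and 2.42 and 2.97 in the mutant. The 247 domains at least 10 kb from another run had a wild type mean of 3.45, beside 3.41 for the 178 with a gap of 2 kb. They covered the same windows in the mutant mean in 82.6% and 75.8% of cases.

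The comparison of mutant with wild type asks whether the mark at short domains changed, relative to the middle of the array, where the demethylase was lost. Each array was centred on its median, so a rise or fall shared by the whole genome would not show in mt/WT. Over the 621 domains, mt/WT averaged -0.035 in replicate 1 and -0.033 in replicate 2 on the log2 scale. No p is given for this mean, because the wild type values in it also chose the domains. The small negative mean did not hold its sign under other scalings, with 0.46 after normexp background correction and 0.11 after scaling each array by its median absolute deviation. It has to be read with the way the domains were chosen. Of 600 short domains defined in the same way on the mutant mean, the average mt/WT was 0.032 in replicate 1 and 0.027 in replicate 2, about as far above 0 as the domains chosen in wild type were below it.

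Choice and comparison can be made in different replicates. Both wild type samples are of 1 line, so differences between the lines that repeat in both replicates still entered the choice. Of 628 short domains chosen on wild type replicate 1 alone, the mean in replicate 2, which took no part in the choice, was 3.86 in wild type and 3.84 in the mutant, a mt/WT of -0.020, and 283 of them were higher in the mutant. Of 611 chosen on wild type replicate 2 alone, the mean in replicate 1 was 3.00 in wild type and 2.99 in the mutant, a mt/WT of -0.012, and 278 were higher in the mutant. The direction depended on the scaling, since in replicates 1 and 2 these differences were 0.22 and 0.42 after normexp and 0.23 and 0.00098 with arrays scaled to a common median absolute deviation. Of all 57266 windows, 53.7% were higher in the mutant by the mean of both replicates. That share was not taken for each replicate, and nothing was read from the counts of higher domains. Broad domains chosen in the same way had a mt/WT of 0.023 in replicate 2 and of -0.022 in replicate 1. Short minus broad was -0.88 and -0.94 in the wild type samples and -0.89 and -0.99 in the mutant samples. The genotypes thus differed in it by -0.032, a value with no test, since wild type chose both sets, and one that turned to 0.18 after normexp and to 0.0026 without wild type replicate 1 or 0.018 without mutant replicate 2.

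Single short domains scattered more than broad ones around this mean. The SD of mt/WT over domains was 0.35 in replicate 1 and 0.36 in replicate 2, against 0.11 and 0.12 for broad domains, which average over more probes. Most of the scatter was shared by the replicates. Pearson's r of mt/WT between replicates was 0.89 over the 621 domains, which share arrays and the 2 lines and are not independent. A total of 208 domains were higher in the mutant in both replicates and 283 were lower in both. Among them, 20 were higher by at least 0.5 in both replicates and 20 lower, none was higher by at least 1 in both, and 5 were lower by at least 1 in both. Counted by window, 28 of 937 (2.99%) were higher by at least 0.5 in both replicates, beside 1.54% of all windows, and 27 (2.88%) were lower, beside 0.59%. By the mean of the replicates, 42.4% of these 937 windows were higher in the mutant, beside 53.7% of all windows. The domains' own values in wild type entered the rule, so nothing was read from these counts and shares.

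The scatter was wider at the low end of the range. The 128 domains with a wild type value from 2 up to 2.5 had a mt/WT of -0.064 and -0.078 in replicates 1 and 2 with an SD of 0.49 over domains. Without the 3 of them that were called decreased by limma, the values were -0.013 and -0.026 with an SD of 0.36. The 175 domains at 4 or above had -0.046 and -0.041 with an SD of 0.18. Of the low domains 56.3% covered the same windows in the mutant mean, and of the high domains 88.6%. A domain near the level crosses it with a smaller change, so these shares depend on the distance from the level and were not tested.

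**Figure D2:**
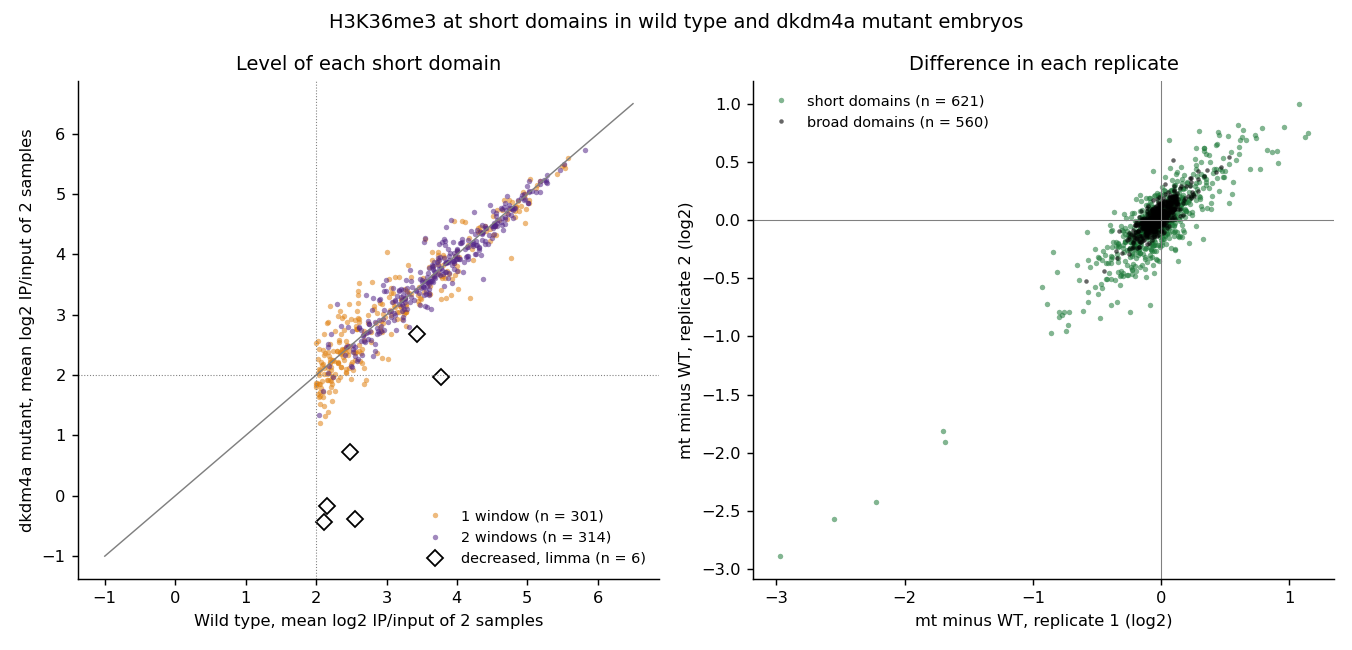
Left, mean log2 IP/input of the 2 mutant samples against that of the 2 wild type samples for each short domain, with the line of equal values and dotted lines at the level of 2; diamonds mark the 6 domains called decreased. Right, mutant minus wild type (mt minus WT, log2) in replicate 2 against replicate 1 for short and broad domains; the points of short domains spread farther, and 5 lie below -1 in both replicates.

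A limma fit over all 57266 windows, with Benjamini-Hochberg adjustment at 0.05, called 6 short domains decreased in the mutant (0.966%) and none increased. Counted by window, 6 of the 937 windows of short domains were called decreased (0.64%) and 0 increased, beside 0.173% and 0.353% of all windows. At an unadjusted p under 0.05, limma found 9 of the 621 domains higher and 20 lower, where 3.74% of all windows were higher and 2.08% lower. A short domain counts as called if 1 of its windows is, so the domain counts at unadjusted p and the window shares have different units. They were not compared. The fit with the replicate number as a block, which uses the shared scan day, called 102 short domains increased (16.4%) and 111 decreased (17.9%). By window these were 123 (13.1%) and 127 (13.6%) of 937, when 5.4% of all windows were called increased and 3.74% decreased. The wild type samples of this contrast chose the domains, so nothing was read from the distance between these shares. Without a trend of the variance with the level, limma called no short domain in either direction, with an adjusted p of at least 0.063 for the 6 domains. After normexp 2 of these 6 domains still passed at their windows, 3L:5848001-5850000 and 3L:13822001-13824000, and with the deposited log2 ratios 5 did. With the short domains defined anew on arrays scaled to a common median absolute deviation, limma called 14 increased and 10 decreased.

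In 3 of the 6 decreased domains both channels were measured well in all samples, or nearly so, and the mark was below 1 in both mutant samples. Wild type values also chose these domains, so each p is given as a description. All 6 are named because they were called decreased, so nothing was read from the number of lower probes or the distance between groups. Without the variance trend the limma adjusted p was 0.063, 0.199 and 0.199, in the order named here. The window at 3L:5848001-5850000, with 9 probes, measured 2.04 and 2.20 in wild type and -0.51 and -0.36 in the mutant, a difference of -2.56 (SE 0.24, limma adjusted p = 1.46e-22). All 9 probes were lower in the mutant in both replicates, and the groups lay far apart. Its input, relative to the median probe, was 0.92 and 0.79 in wild type and 0.93 and 1.11 in the mutant. The window at 3L:13822001-13824000, also with 9 probes, measured 2.36 and 2.61 in wild type and 0.66 and 0.80 in the mutant, a difference of -1.76 (SE 0.29, adjusted p = 1.72e-06). Every probe was lower in the mutant there too, and a run of probes about 3 kb to its right reached above 2 in all samples. The input was again alike, with 0.87 and 0.86 in wild type and 0.85 and 0.96 in the mutant. The third, 3R:15594001-15596000, measured 1.90 and 2.41 in wild type and -0.32 and -0.01 in the mutant, a difference of -2.32 (SE 0.25, adjusted p = 7.59e-17). The decrease there reached past the domain, with a window to its left at 1.08 in wild type and -0.47 in the mutant. Input at this domain was low in all samples, between -1.35 and -2.42, and of 10 probes 8 and 7 were well above background in the IP channel of the mutant. After normexp its difference was -0.78 and the call was lost (adjusted p = 1.00), while the first domain kept -1.83 (adjusted p = 2.32e-13) and the second -1.56 (adjusted p = 0.0002).

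A pair of the 6 decreased domains had input signals that differed between the lines. At 2L:1276001-1278000 the ratio was 2.39 and 2.71 in wild type and -0.58 and -0.18 in the mutant, but the input was -7.09 and -6.90 in wild type and -3.21 and -3.23 in the mutant. Of its 11 probes, 1 and 2 were well above background in the wild type input and 1 and 0 in the wild type IP, so its wild type ratio is one of signals near background. At 3L:6001-10000, at the telomeric end of the arm, the ratio was 3.58 and 3.96 in wild type and 1.90 and 2.06 in the mutant, with an input of -1.79 and -2.36 in wild type and -5.55 and -5.80 in the mutant. Of its 18 probes, all were well above background in both channels in wild type. In the mutant, 5 and 6 were well above background in the input and 4 and 2 in the IP. The mutant ratio of this domain is thus one of signals near background. For both domains the difference in H3K36me3 cannot be told apart from the difference in input. Without all 7 domains whose input differed by at least 0.5 between the genotypes in both replicates, 4 domains were called decreased.

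The last of the 6 was a partial change. The domain at 3R:15884001-15888000 measured 3.16 and 3.71 in wild type and 2.45 and 2.92 in the mutant, so that its samples did not overlap between genotypes. Its window further right passed the test with a difference of -1.15 (SE 0.29, limma adjusted p = 0.017), while the strongest probes, on its left, were about as high in the mutant, with a highest probe of 5.13 and 5.88 in wild type and 5.15 and 5.69 in the mutant. The stretch of marked probes was 3.48 kb in wild type and 2.42 kb in the mutant. This call was lost when any 1 of the 4 samples was left out, with adjusted p from 0.248 to 0.687, and with the deposited log2 ratios.

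The next 3 decreases passed with the replicate block and not without it, except that 3L:13468001-13470000 also passed with arrays scaled to a common median absolute deviation (limma adjusted p = 0.028). The domain at 3L:2616001-2618000 measured 3.92 and 4.46 in wild type and 3.06 and 3.49 in the mutant and stayed a short domain of the same window. That at 3R:17004001-17006000 measured 2.41 and 2.94 in wild type and 1.61 and 2.11 in the mutant and fell under the level of 2 in the mutant mean. That at 3L:13468001-13470000 measured 1.92 and 2.20 against 1.18 and 1.25. Without the block, their limma adjusted p was 0.833, 0.552 and 0.262.

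The highest increases were of about 1 on the log2 scale, and none was called by the limma fit without the block, though all 5 named here were with arrays scaled to a common median absolute deviation (adjusted p from 0.004 to 0.037). The domain at 3L:7752001-7754000 measured 2.56 and 3.44 in wild type and 3.64 and 4.44 in the mutant, higher by 1.08 and 0.999 within replicates. All 11 of its probes were higher in the mutant in both replicates, and the mutant samples lay above both wild type samples. The domain at 2L:2818001-2820000 measured 1.70 and 2.69 in wild type and 2.84 and 3.44 in the mutant. It was 1.90 kb long at the probe level in wild type and 4.64 kb in the mutant, where its run grew wider. The domain at 3L:21608001-21610000 measured 2.14 and 3.07 against 3.27 and 3.78, and it too was part of a wider run in the mutant. A domain of 2 windows at 2L:4342001-4346000 measured 1.97 and 2.63 against 2.93 and 3.43. That at 3R:9930001-9932000 measured 2.19 and 3.02 in wild type and 2.97 and 3.81 in the mutant, where replicate 1 of the mutant lay between the wild type samples. In the other 4 of these 5 the groups did not overlap. All 5 were picked for a large increase, so nothing was read from this. All probes of the 5 domains, 6 to 16 in each, were well above background in both channels of all samples, and all were higher in the mutant in both replicates. The 5 passed the fit with the replicate block, and without it their limma adjusted p was between 0.331 and 0.833.

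**Figure D3:**
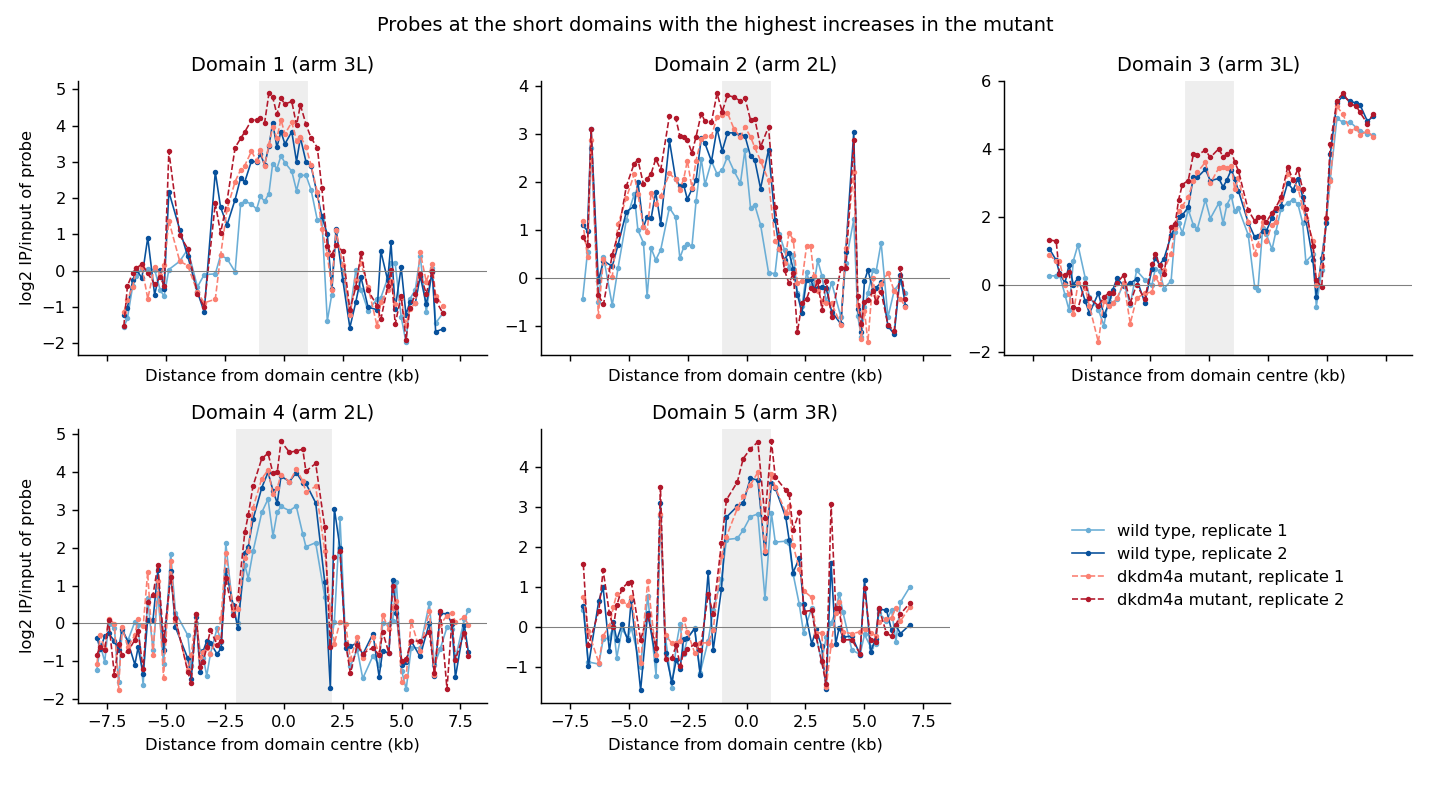
Log2 IP/input of single probes by distance from the domain's centre (kb) at the 5 short domains with the highest mt minus WT, in order: 3L:7752001-7754000, 2L:2818001-2820000, 3L:21608001-21610000, 2L:4342001-4346000 and 3R:9930001-9932000. Grey bands are the domains; within each band the mutant line (dashed) of a replicate lies above the wild type line (solid) of that replicate at every probe.

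Most short domains were found in the mutant as well. A total of 550 of 621 (88.6%) were at 2 or above in both mutant samples, 79.3% of the domains of 1 window and 97.5% of those of 2 windows, beside 99.2% of runs of 3 or 4 windows and 100% of broad domains. In the wild type samples, whose mean chose the domains, 571 of 621 were at 2 or above in both. These were 261 of 305 domains of 1 window and 310 of 316 of 2 windows. In the mean of the mutant samples, 488 (78.6%) covered exactly the same windows, 76 were part of a wider run, 14 were shorter, 1 had shifted and 1 was found only next to its place. The other 41 had no window at 2 or above there. Of these, 38 were domains of 1 window and 32 still had a mutant mean of at least 1.5, while 4 were below 1. Conversely, of the 600 short domains of the mutant mean, 488 (81.3%) covered the same windows in wild type, 45 were part of a wider run there and 45 had no window at 2.

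Width was compared between samples as well. Of the domains defined in wild type replicate 1, 73.1% covered the same windows in wild type replicate 2 and 82.2% in mutant replicate 1. Of those defined in wild type replicate 2, 75.1% did so in wild type replicate 1 and 78.6% in mutant replicate 2. From replicate 1 to replicate 2 domains became wider, in 26.6% of cases in wild type and in 30.4% in the mutant, and replicate 2 had the higher values. These counts rest on a fixed level in samples of different scale, and no test was made of them.

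**Figure D4:**
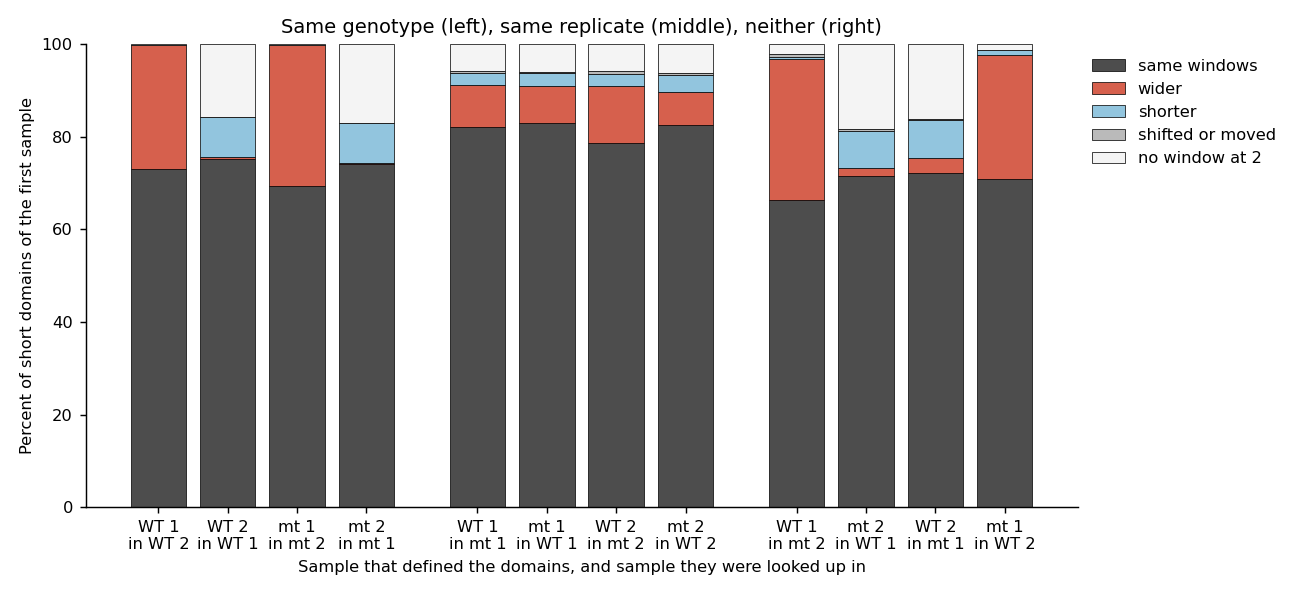
Percent of the short domains of 1 sample that covered the same windows, were part of a wider run, were shorter, were shifted or moved, or had no window at 2 or above in another sample (WT, wild type; mt, mutant; numbers are replicates). Bars in the middle compare genotypes within a replicate and have 78.6% to 83.0% of domains with the same windows, against 69.3% to 75.1% between replicates of 1 genotype on the left.

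The domains nearest to the level show what it separates. The lowest member, 3L:2234001-2236000, measured 2.03 and 1.98 in wild type and 2.32 and 2.74 in the mutant, followed by 3L:5790001-5792000 with 1.88 and 2.12 against 1.72 and 2.03. The next were 3R:19092001-19094000 with 1.96 and 2.05 against 1.87 and 1.75, and 2L:16172001-16174000 with 1.81 and 2.19 against 1.54 and 2.13. Just outside, 3R:12028001-12030000 measured 1.87 and 2.11 in wild type and 2.00 and 2.07 in the mutant, and 3L:15274001-15276000 measured 1.97 and 2.02 against 1.66 and 2.03. The last of the nearest, 2L:648001-650000 and 2L:21044001-21046000, had wild type means of 1.99 and 1.97 and mutant means of 2.57 and 2.16. The windows on either side of the level were alike in wild type, and in both sets some were above 2 and some below it in the mutant. There were 27 domains with a wild type value from 2 up to 2.1 and 25 single windows from 1.9 up to 2.

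Short domains had more input signal than the arms at large and a similar number of probes per window. Relative to the median probe, input over their windows averaged 0.16 and -0.07 in wild type and 0.16 and -0.07 in the mutant, beside 0.39 and 0.15 over broad domains and -0.27 and -0.46 over all windows of the arms in wild type. The enriched windows therefore had more input signal than the arms at large, in both genotypes. Their IP signal was 3.61 and 3.86 in wild type and 3.54 and 3.81 in the mutant, beside 0.50 and 0.47 over the arms in wild type. They held 8.39 probes per window, as the arms did with 8.34, and the probes averaged 55.9 bases in length (SD 3.0 over windows), beside 57.4 over the arms and 55.7 over broad domains. In 464 of the 621 domains (74.7%) every probe was well above background in the input of all 4 samples. The part of input and probe length in the ratios was not tested.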

How the data were processed

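H3K36me3 ChIP-chip of 2 wild type and 2 *dkdm4a* mutant samples on 8 arrays was used, with groups, replicate numbers and channels from the labels. The authors deposited scanner intensities of Feature Extraction 10.5.1.1 with background-subtracted, detrended and dye-scaled processed intensity values. The outlier and background flags were deposited by the authors with the intensities. The authors also deposited log2 ratios, which match background-subtracted IP over input plus a constant per array and were used as an alternative. The array files name no build, and gene positions and probe sequences were not used here.

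Log2 IP/input was taken from the processed intensities, each array was centred on its median, and control and outlier spots were left out, which gave 475027 probes. Windows of 2 kb needed at least 3 probes, and 57266 had them. Mutant was tested against wild type in all windows by limma 3.58.1 under R 4.3.3, using lmFit, a variance trend in eBayes and an adjusted p of 0.05. Means over the members are given without a test, because wild type values chose the members, and the exact permutation planned for them is not used. The replicate numbers pair the samples, since both genotypes of a number were scanned on the same day, and the replicate difference correlated between genotypes with r = 0.653 over windows. The members, lists and rules were chosen with earlier results of these data known. Regions named are the 8 highest domains, 4 on each side of the level, the 5 largest changes each way (called ones first) and the highest in the mutant, with windows of at least 5 probes, except at the level. The other called domain, the most isolated and sharpest domains, and the next decreases were added after their values were seen. The gene lists that were planned could not be applied. The files show no 2 samples with identical values, and labels call them biological replicates. The steps were tested on simulated windows. Python 3.11.15, numpy 2.4.6, pandas 2.3.3 and matplotlib 3.10.9 were used. Columns of no sample numbered 0. Precision is limited by the number of samples.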

Additional observations from a re-analysis of the deposited data

How the results depend on the processing

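The number of samples limits every comparison, and IP signals near background limit the low values beside the domains. The count of short domains, 621, stayed between 550 and 683 under the alternatives except after normexp, which gave 957 (828 of them at 2 or above in both mutant samples). The median mt/WT of all windows in replicates 1 and 2 was 0.142 and -0.158 after normexp, against 0.013 and 0.016 without it. The limma fit without the replicate block called 0 short domains increased and 6 decreased. It called 14 and 10 once arrays were scaled to a common median absolute deviation, 102 and 111 with the replicate block, 2 increased at a level of 1.5, 2 decreased at a level of 2.5, 3 decreased with the deposited ratios, and 0 decreased after normexp or without the variance trend. These counts, and the means given below, are over domains defined anew under each setting. Of the 6 decreased domains themselves, 5 passed with the deposited ratios, 2 after normexp and 0 without the trend. Leaving out 1 sample at a time gave 4 to 5 decreased and 0 increased domains, 611 to 628 short domains, and 502 to 594 at 2 or above in the mutant samples that remained, where a lone sample was assumed to vary like the other genotype's. The mean mt/WT of -0.034 turned to 0.459 after normexp and 0.111 after the scaling, and ran from -0.275 to 0.219 with 1 sample left out, when replicates 1 and 2 were no longer balanced. Of domains chosen in the other replicate it was -0.016, and turned to 0.317 after normexp and 0.118 after the scaling. It moved to -0.035 with the deposited ratios, -0.0088 with 5 or more probes, and -0.026 and -0.0086 at levels of 1.5 and 2.5. Short minus broad changed from -0.032 to 0.175 after normexp, -0.072 after the scaling and -0.0097 with the deposited ratios, and ran from -0.082 to 0.018 with 1 sample left out. With the replicate block both means are by construction the same, -0.034 and -0.032. Leaving out the 7 domains of differing input was chosen after seeing the data and gave 4 decreased. The causes of these shifts were not tested.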

Other observations

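At 3L:3700001-3702000 the left neighbour of the domain, the neighbouring window with the largest difference between the genotypes, measured 1.47 and 2.23 in wild type and 3.34 and 4.24 in the mutant, and its samples did not overlap. The domain itself measured 4.04 and 4.57 in wild type and 4.12 and 4.75 in the mutant. It was singled out after its values were seen. In all, 85 of the 1242 neighbouring windows were at 2 or above in the mutant mean. By the rule all of them were below 2 in the wild type mean, so nothing was read from this count.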
